A study of Bos taurus with 15 samples.

Results

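RNA sequencing set bovine oocytes cooled in liquid nitrogen at a cryoprotective agent concentration of 5.6 M (nitrogen 5.6 M) against fresh oocytes, gene by gene. The comparison took the 3 nitrogen 5.6 M libraries and the 3 fresh libraries out of the 15 libraries of the series, as their treatment labels name them, and used every gene of the deposited table. The other 9 libraries came from oocytes vitrified in nitrogen with 6.6 M agent, in liquid helium with 5.6 M, and in helium with 6.6 M, 3 libraries each. Fresh and vitrified groups shared the same history: in vitro maturation of 22 to 24 h in a medium with serum, LH, FSH, cysteine and follicular fluid, then removal of the cumulus cells with hyaluronidase. The labels call the cells matured oocytes while the design text calls them immature. They give neither the breed or age of the donors, nor the time between warming and lysis, nor whether fresh oocytes passed through cryoprotectant without cooling. Per the labels' protocols the RNA was taken from single cells and amplified as cDNA with SMARTer chemistry. They do not say whether a library held 1 oocyte or several, so each SD and p-value covers variation between single oocytes or between pools, whichever the libraries were. No label ties a replicate to an animal or a culture of its own, so a p-value measures only how libraries of a group vary, and that variation may be technical. The gene-by-gene p-values and SEs of the main fit draw that variation from all 15 libraries, not from the 6 compared alone.

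Vitrification cools cells so fast, in so concentrated a cryoprotectant, that water solidifies as a glass and no ice crystals form. A fully grown oocyte transcribes little. It lives on messenger RNA that it stored while growing and that is translated or degraded on a schedule during maturation and after fertilisation. Counts here are shares of a library's total, so a loss that touched every gene alike would not be visible.

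The nitrogen 5.6 M libraries held 1790900 to 2333545 counts and the fresh libraries 1601519 to 2822837. Of 24616 genes in the table, 13685 had a count in at least 1 of the 6 libraries and 8441 were tested. All 10 oocyte markers in the table were present in every library, among them ZP2, a protein of the egg coat, and GDF9 and BMP15, growth factors that the oocyte secretes. Their summed level was 5883 to 6874 CPM (each count as a share of the library total, on the usual scale, with no further correction here) in nitrogen 5.6 M and 5113 to 9546 CPM in fresh libraries. Of 30 cumulus and granulosa markers in the table, 16 to 17 had a count in the nitrogen 5.6 M libraries and 17 to 18 in the fresh ones, with sums of 453 to 470 and 425 to 597 CPM. STAR, which moves cholesterol into mitochondria, was the highest of them in each library. FSHR, AMH, FOXL2, INHBB, AREG, EREG and LUM had no count in any of the 6, which allows up to 1.29 to 1.68 CPM in a nitrogen 5.6 M library and 1.06 to 1.87 CPM in a fresh one, from counting error alone. Fewer remaining cumulus cells and less RNA per such cell cannot be told apart in these sums. The 21 blood, immune and stromal markers summed to 38.5 to 54.6 CPM in nitrogen 5.6 M and 25.6 to 44.4 CPM in fresh libraries, with PTPRC, CD14 and HBB at 0 in all 6. Of these 21, 4 were tested, all 4 lay above 0 and none was called. VWF, an endothelial clotting factor, was at 11.01, 12.8 and 15.7 CPM in nitrogen 5.6 M against 4.01, 7.54 and 5.90 CPM in fresh libraries (both TMM-scaled), free of overlap (log2 fold change 1.14, SE 0.31, edgeR adjusted p = 0.403). SERPINE2 was the 1 of 13 tested cumulus and granulosa markers above every fresh library (0.71, SE 0.34), where 5.24% of all tested genes lay. The part of these markers in the results was not tested. Gene by gene, the nitrogen 5.6 M libraries varied less than the fresh ones, but rank correlation did not set the groups apart. Spearman's rho of nitrogen 5.6 M library 3 was 0.952 with fresh library 2 and 0.949 with nitrogen 5.6 M library 2. Pairs within nitrogen 5.6 M ran over 0.949 to 0.972 and pairs within fresh over 0.934 to 0.959. The SD of log2 CPM between libraries had a median over genes of 0.31 in nitrogen 5.6 M and 0.43 in fresh oocytes, and it was smaller in nitrogen 5.6 M for 65.7% of genes. In helium 5.6 M, which also entered the main edgeR fit, that median was 0.20.

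By edgeR a single gene, SNRPC, differed beyond the spread between libraries after correction. In what follows a gene is called when its edgeR adjusted p is under 0.05, unless another tool is named. SNRPC encodes the C protein of the U1 small nuclear ribonucleoprotein, the particle that marks the start of introns for splicing. SNRPC stood at 267, 334 and 365 CPM (TMM-scaled, which corrects totals for a few dominant genes, as are all CPM levels from here on) in the 3 nitrogen 5.6 M libraries, against 61.4, 77.9 and 99.0 CPM in the 3 fresh libraries. The lowest vitrified library was above the highest fresh one by a wide margin. These levels rested on 630, 706 and 629 counts in nitrogen 5.6 M and 92, 155 and 235 in fresh libraries. SNRPC rose 4.03-fold, a log2 fold change of 2.01 (SE 0.21, 95% interval 1.57 to 2.45, edgeR adjusted p = 7.33e-05). It was 1 call among 8441 genes, or 0.0118%, and no gene was called lower. The gene (ENSBTAG00000024549) spans 8726525 to 8737237 on chromosome 23 of the build UMD3.1, and no other gene of the table overlaps it. Its counts and FPKM imply a length of 753 bases.

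The size of the SNRPC difference varied little with processing. Over 16 alternative fits its log2 fold change lay between 1.92 and 2.22 and it passed the threshold in each. The number of genes called depended more on the tool. DESeq2 called 36 of 5238 genes (0.687%), 35 higher and 1 lower in nitrogen 5.6 M, and limma on log2(FPKM + 1) called 19 of 10040 (0.189%). Without correction, 319 genes had p under 0.05 with a higher level in nitrogen 5.6 M (3.78% of those tested) and 250 with a lower one (2.96%), together 569 genes or 6.74%. That share depended on the fit of all 15 libraries. In an edgeR fit of the 6 libraries alone, 291 of 7132 tested genes had an unadjusted p under 0.05. With those 6 also blocked by replicate number it was 170 of 7132. All 3 nitrogen 5.6 M libraries lay above all 3 fresh ones for 442 genes (5.24%) and below them for 340 (4.03%), together 782 genes or 9.26%. In total 44.6% of genes had a log2 fold change above 0, and the median was -0.05.

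**Figure D1:**
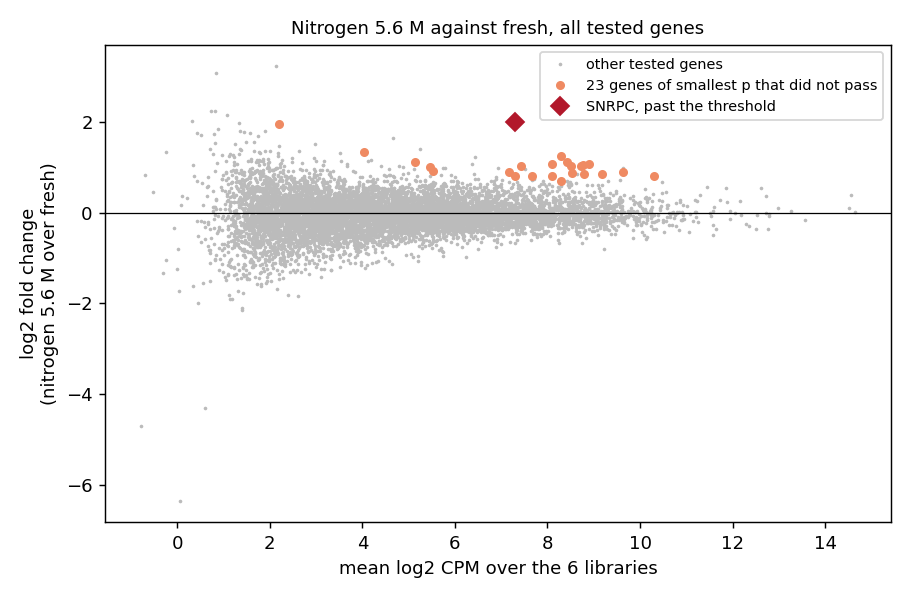
Log2 fold change (nitrogen 5.6 M over fresh, vertical axis) against the mean log2 CPM over the 6 libraries (horizontal axis) for the 8441 tested genes, 1 point each. SNRPC stands at 2.01, and the 23 genes of next smallest p among those with a symbol and at least 5 FPKM in the higher group all lie above 0, while the points as a whole spread widest at low levels.

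Among genes with a symbol and a mean of at least 5 FPKM (counts scaled by gene length and library total) in the higher group, the 23 of next smallest p were all at higher levels in nitrogen 5.6 M, and none of them passed the edgeR threshold. Their adjusted p-values ran over 0.0923 to 0.403 and their log2 fold changes over 0.70 to 1.95, with a median of 1.00. All 23 were free of overlap between the groups, which their selection by p favours, so no weight is put on it. DESeq2 called 20 of them and limma 9. With the level filter left aside, 28 genes above 0 and 2 below 0 had a p as small as that of the last gene named. Those 2 were at very low counts. MTO1, a mitochondrial tRNA-modifying enzyme, had 0, 0 and 1 counts in nitrogen 5.6 M and 4, 8 and 10 in fresh libraries. INTU, a ciliary planar polarity protein, had 7, 4 and 3 counts in nitrogen 5.6 M and 14, 12 and 16 in fresh libraries. Of SNRPC and the 23, 22 were shorter than the median tested gene of 2041 bases. Their lengths ranged over 414 to 2275 bases. Gene length moved with the fold change across all genes, and its part in these values was not tested.

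**Figure D2:**
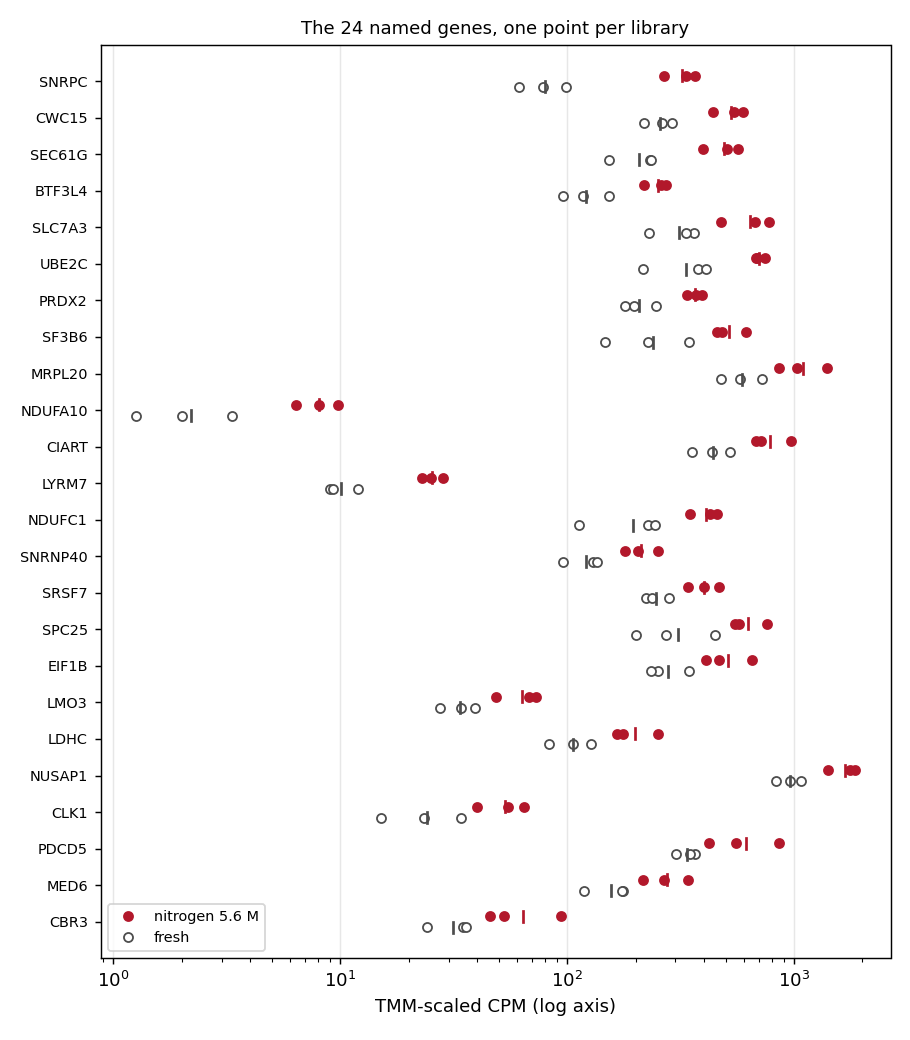
TMM-scaled CPM (log axis) of SNRPC and the 23 genes of next smallest p with a symbol and at least 5 FPKM in the higher group, 1 point per library, nitrogen 5.6 M above fresh in each row, with a bar at each group's mean. The groups do not overlap in any row, and SNRPC has the widest gap between its lowest vitrified and its highest fresh library.

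CWC15, SF3B6, SNRNP40 and SRSF7 were the splicing factors among the 23. CWC15, which belongs to the complex that activates the spliceosome, was at 439, 598 and 545 CPM in nitrogen 5.6 M against 262, 219 and 290 CPM in fresh oocytes, a log2 fold change of 1.04 (SE 0.19, edgeR adjusted p = 0.0923). SF3B6, the U2 particle subunit that touches the branch point of introns, was at 458, 615 and 481 CPM in nitrogen 5.6 M against 228, 146.3 and 343 CPM in fresh oocytes, a log2 fold change of 1.12 (SE 0.25). The SF3B6 fresh libraries were spread more widely than the vitrified ones. SNRNP40, a protein of the U5 particle, was at 180, 205 and 251 CPM in nitrogen 5.6 M against 95.5, 130 and 136 CPM in fresh oocytes. SRSF7, a serine- and arginine-rich protein that helps define exons, was at 340, 402 and 465 CPM in nitrogen 5.6 M against 223, 237 and 280 CPM in fresh oocytes. CLK1, a kinase that phosphorylates such proteins, was at 55.1, 64.3 and 40.1 CPM in nitrogen 5.6 M against 23.4, 15.1 and 34.1 CPM in fresh oocytes. For these 3 genes the gap between the lowest vitrified and the highest fresh library was narrower, as a ratio, than for CWC15.

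Of 53 tested members of the splicing list, drawn from small nuclear ribonucleoproteins and spliceosome factors, edgeR called 1 (SNRPC), DESeq2 5 and limma 3. Relative to 0, 29 lay above 0 and 24 below, and the median log2 fold change was 0.06. Above all fresh libraries were 8 of the 53 (5.24% over all genes), and below them was 1 (4.03% over all genes). Besides the genes above, the exon-binding SRSF2 (log2 fold change 0.44), SF3A3 of the U2 particle (0.34) and LUC7L of the U1 particle (1.13) had no overlap, and TRA2A, another exon-binding protein, was the member below (-0.39). With 1 library left out the list's median ran over 0.03 to 0.17. Of the most abundant members, SNRPF averaged 2655 ± 224 CPM in nitrogen 5.6 M and 2195 ± 842 CPM in fresh oocytes (SD, n = 3 each), and CDC5L had a log2 fold change of -0.06 (SE 0.22).

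Several genes of protein synthesis, export and uptake stood among the 23. SEC61G, the smallest subunit of the channel through which new proteins enter the endoplasmic reticulum, was at 396, 508 and 564 CPM in nitrogen 5.6 M against 232, 153 and 234 CPM in fresh oocytes. Its log2 fold change was 1.24 (SE 0.23, edgeR adjusted p = 0.0923). BTF3L4, a relative of a chaperone subunit that binds nascent chains at the ribosome, was at 218, 274 and 258 CPM in nitrogen 5.6 M against 117, 95.5 and 152 CPM in fresh oocytes, with an adjusted p of 0.109 by edgeR. EIF1B, a relative of the factor that checks start codons, was at 408, 655 and 465 CPM in nitrogen 5.6 M against 252, 346 and 235 CPM in fresh oocytes. SLC7A3, a carrier of cationic amino acids such as arginine and lysine, was at 474, 771 and 676 CPM in nitrogen 5.6 M against 230, 363 and 335 CPM in fresh oocytes. MRPL20, a protein of the mitochondrial ribosome, was at 858, 1029 and 1401 CPM in nitrogen 5.6 M against 475, 578 and 720 CPM in fresh oocytes. Nitrogen 5.6 M library 1 was the lowest vitrified library for SEC61G, BTF3L4, EIF1B, SLC7A3 and MRPL20 alike.

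Genes of chromosome segregation formed another group. UBE2C, the enzyme that hands ubiquitin to the anaphase-promoting complex, was at 689, 680 and 741 CPM in nitrogen 5.6 M against 376, 217 and 410 CPM in fresh oocytes, a log2 fold change of 1.07 (SE 0.22, edgeR adjusted p = 0.167). SPC25, part of the kinetochore complex that grips microtubules, was at 571, 758 and 551 CPM in nitrogen 5.6 M against 450, 202 and 274 CPM in fresh oocytes; its span overlaps a U6 gene of the table, so its counts are less certain. NUSAP1, which bundles spindle microtubules, was at 1406, 1847 and 1770 CPM in nitrogen 5.6 M against 1067, 836 and 960 CPM in fresh oocytes. For UBE2C the vitrified libraries lay close together and the fresh ones were spread widely. In the lists behind these genes the numbers on each side of 0 were close: 17 above and 20 below of 37 checkpoint, kinetochore and cohesin genes, 20 above and 17 below of 37 spindle and cytoskeleton genes, and 8 above and 11 below of 19 genes of the anaphase-promoting complex and its partners. By edgeR none of these lists had a called member, and DESeq2 called 2 of the first (SPC25 and BUB3), 1 of the second (NUSAP1) and 1 of the last (UBE2C). BUB3, a checkpoint protein, was at 386, 433 and 530 CPM in nitrogen 5.6 M against 249, 352 and 286 CPM in fresh oocytes, free of overlap and not past the threshold (edgeR adjusted p = 0.421). Among 26 meiotic kinases, cyclins and their partners, CCNB2 had a log2 fold change of 0.38 (SE 0.17) and CCNE1 one of -0.86 (SE 0.35), neither past the threshold.

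Mitochondrial and redox genes supplied 5 more. PRDX2, a peroxidase that removes hydrogen peroxide, was at 339, 368 and 394 CPM in nitrogen 5.6 M against 179, 198 and 247 CPM in fresh oocytes (edgeR adjusted p = 0.180). NDUFC1, an accessory subunit of respiratory complex I, was at 347, 458 and 427 CPM in nitrogen 5.6 M against 227, 113 and 243 CPM in fresh oocytes. NDUFA10, also of complex I, was far scarcer at 9.74, 8.04 and 6.39 CPM in nitrogen 5.6 M against 3.34, 2.01 and 1.26 CPM in fresh oocytes. Its log2 fold change of 1.95 was the largest of the 23, with an SE of 0.46. It rested on low counts, 23, 17 and 11 in nitrogen 5.6 M and 5, 4 and 3 in fresh libraries, and DESeq2 gave it no adjusted p. LYRM7, an assembly factor of complex III, was at 22.9, 25.1 and 28.4 CPM in nitrogen 5.6 M against 12.02, 9.05 and 9.27 CPM in fresh oocytes. LDHC, the lactate dehydrogenase of germ cells, was at 177, 251 and 165 CPM in nitrogen 5.6 M against 83.5, 107 and 128 CPM in fresh oocytes. CIART, a repressor of the circadian clock, LMO3, a transcription cofactor, MED6, a Mediator subunit, PDCD5, a protein tied to programmed cell death, and CBR3, a carbonyl reductase, completed the 23. Their log2 fold changes were 0.84, 0.91, 0.81, 0.86 and 1.00 in that order, and MED6 overlaps 2 other genes of the table, which leaves its counts uncertain.

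A set of 20 genes, several of them described above, had been brought up by an earlier comparison of all vitrified with fresh libraries. That comparison used the same data, so neither direction nor lack of overlap here is independent of it, and no weight is put on either. In nitrogen 5.6 M, 12 of the 20 were above 0, all with no overlap (5.24% over all genes). The other 8 were below 0, and 5 of those 8 had no overlap (4.03% over all genes). Only SNRPC passed by edgeR. On the lower side, PTMS, a small acidic nuclear protein, was at 11.9, 11.8 and 18.6 CPM in nitrogen 5.6 M against 26.7, 38.2 and 23.2 CPM in fresh oocytes. TIFA, an adaptor of inflammatory signalling, was at 69.9, 104 and 104 CPM in nitrogen 5.6 M against 226, 118 and 129 CPM in fresh oocytes. FUBP3, a single-strand nucleic acid binder, was at 51.7, 40.2 and 43.0 CPM in nitrogen 5.6 M against 72.8, 64.3 and 67.4 CPM in fresh oocytes. TMED7, a cargo receptor of the early secretory pathway, was at 174, 190 and 174 CPM in nitrogen 5.6 M against 257, 216 and 263 CPM in fresh oocytes, and was the single gene that DESeq2 called lower (adjusted p = 0.0243). Among the higher ones, ISCU, the scaffold for iron-sulfur clusters, was at 29.2, 28.8 and 30.2 CPM in nitrogen 5.6 M against 18.7, 17.6 and 14.7 CPM in fresh oocytes, tightly grouped on both sides.

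**Figure D3:**
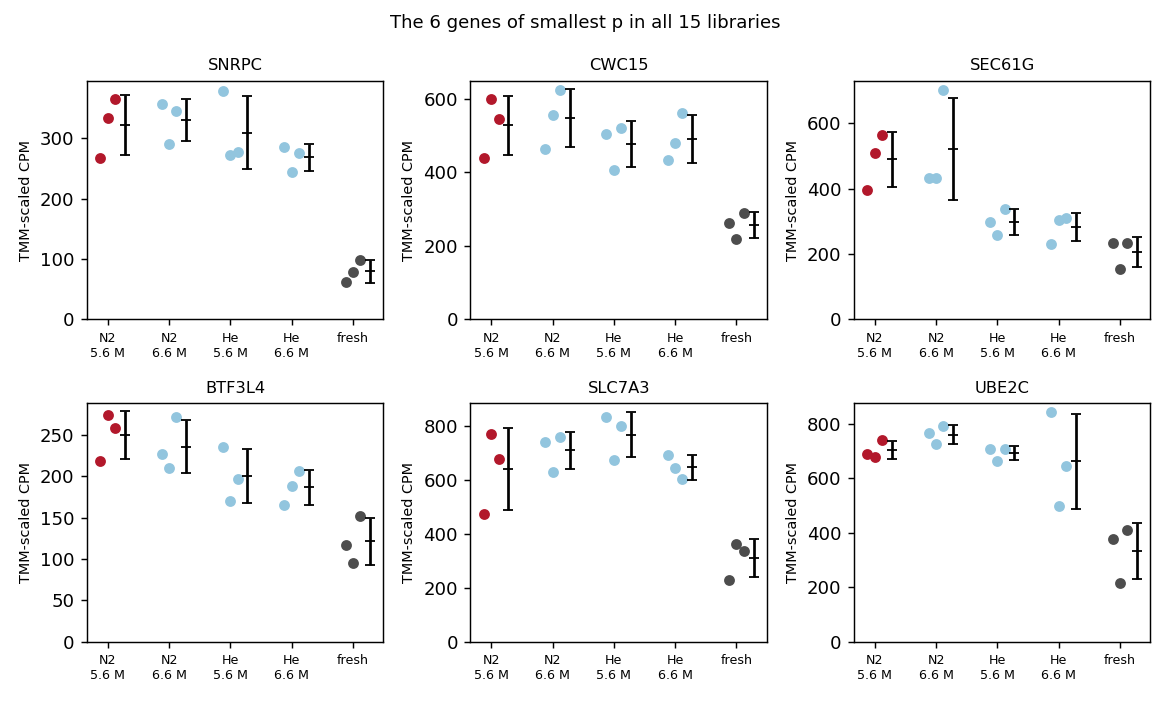
TMM-scaled CPM of the 6 genes of smallest p in all 15 libraries, 1 point per library, with the mean and SD of each group of 3 beside its points; N2 is nitrogen and He is helium. Nitrogen 5.6 M is in red at the left and fresh in dark grey at the right. SNRPC averages 322 CPM in nitrogen 5.6 M and 79.5 CPM in fresh oocytes, and SEC61G averages 489 CPM in nitrogen 5.6 M against 299 CPM in helium 5.6 M.

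Gene groups in which a response to cooling, osmotic stress or oxidation might appear showed no member called by edgeR. DESeq2 called SEC61G and TMED7 of the endoplasmic reticulum list, PRDX2 of the antioxidant list and CIART of the immediate early list, and limma called SEC61G, PRDX2 and CIART. Among 37 heat shock and cold-inducible genes, 11 lay above 0 and 26 below, with a median log2 fold change of -0.11, or -0.10 to 0.01 with 1 library left out. HSP90AA1, the inducible cytosolic HSP90 chaperone, was at 1839, 1423 and 1698 CPM in nitrogen 5.6 M against 2124, 1704 and 1177 CPM in fresh oocytes, and HSP90B1, its counterpart in the endoplasmic reticulum, at 1478, 1421 and 1899 CPM in nitrogen 5.6 M against 2148, 1731 and 2029 CPM in fresh oocytes. BAG3, TCP1, HSPD1 and DNAJA2, co-chaperones and folding proteins, were the 4 members below every fresh library (4.03% over all genes), and none was above (5.24% over all genes). Among 47 genes of endoplasmic reticulum stress and secretory entry, 14 lay above 0 and 33 below (median -0.12, or -0.13 to -0.02 with 1 library left out, the last without nitrogen 5.6 M library 3). DDIT3, a transcription factor of that stress response, was at 606, 595 and 773 CPM in nitrogen 5.6 M against 576, 360 and 571 CPM in fresh oocytes and did not pass. Its span overlaps MARS in the table, as ATP5J overlaps GABPA and COX3 overlaps ATP6, and with strand use unstated their counts are uncertain. Among 24 immediate early and acute stress genes, 12 lay on each side of 0.

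The 17 tested genes of osmotic, water and ion transport had the lowest median of the nuclear lists, -0.25, with 4 above 0 and 13 below. The list's median stayed between -0.31 and -0.15 under every alternative run. Of 37 genes of this list in the table, 20 were too low to be tested.

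Antioxidant genes were mixed, with 20 above 0 and 11 below of 31 and a median of 0.03, which was 0.07 to 0.19 with 1 library left out, the last without nitrogen 5.6 M library 3. Besides PRDX2 and ISCU, TXN, the small thiol reductant thioredoxin, was at 60.1, 37.3 and 29.0 CPM in nitrogen 5.6 M against 22.0, 26.6 and 15.2 CPM in fresh oocytes (edgeR adjusted p = 0.421). The abundant members GSTM3 and PRDX1 had log2 fold changes of 0.31 (SE 0.36) and 0.15 (SE 0.19). Of 22 apoptosis regulators, 10 lay above 0 and 12 below. Of 51 genes of DNA methylation and histone modification, 17 lay above 0 (33.3%) and 34 below, with a median of -0.12, or -0.28 (without fresh library 3) to -0.05 (without fresh library 2). The list's genes are long, with a median of 3623 bases, and in the longest of 5 length classes 30.9% of genes lay above 0; the part of length was not tested. DNMT1, the maintenance methyltransferase, was at 709, 629 and 668 CPM in nitrogen 5.6 M against 783, 541 and 559 CPM in fresh oocytes. KDM1A, a histone demethylase, was at 123, 114 and 105 CPM in nitrogen 5.6 M against 129, 142 and 175 CPM in fresh oocytes, the most abundant of the 4 of 51 members below every fresh library, against 4.03% of all genes and 6.22% in the longest class.

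Genes that serve the stored message and the egg's own programme were near the middle of all genes. Of 62 genes of maternal mRNA storage, translation control and decay, 22 lay above 0 and 40 below (median -0.10, or -0.15 to 0.03 with 1 library left out), and of 33 oocyte-specific and maternal-effect genes 18 lay above 0 and 15 below (median 0.02). Of 24 genes of calcium handling, fusion and egg activation 9 lay above 0. The other lists had medians of -0.07 (39 lipid genes), -0.04 (52 DNA repair genes), -0.03 (40 cytosolic ribosomal proteins), 0.00 (36 genes of glucose breakdown and the citrate cycle) and 0.06 (61 autophagy and proteasome genes). With 1 library left out these medians ran over -0.10 to -0.01 for lipid genes, 0.01 to 0.11 for DNA repair, -0.15 to 0.07 for ribosomal proteins, 0.01 to 0.22 for glucose breakdown and 0.03 to 0.11 for autophagy and the proteasome. Genes are filtered anew in each such fit, so the members can differ. Meiotic kinases and cyclins had a median of 0.11 and 13 amino acid transporters one of 0.20; with 1 library left out these ran over -0.03 to 0.27 and -0.04 to 0.30. By edgeR no member of these lists was called, and DESeq2 called LDHC and SLC7A3. The 10 oocyte markers had a median of 0.04, and the 13 tested cumulus and granulosa markers -0.02.

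**Figure D4:**
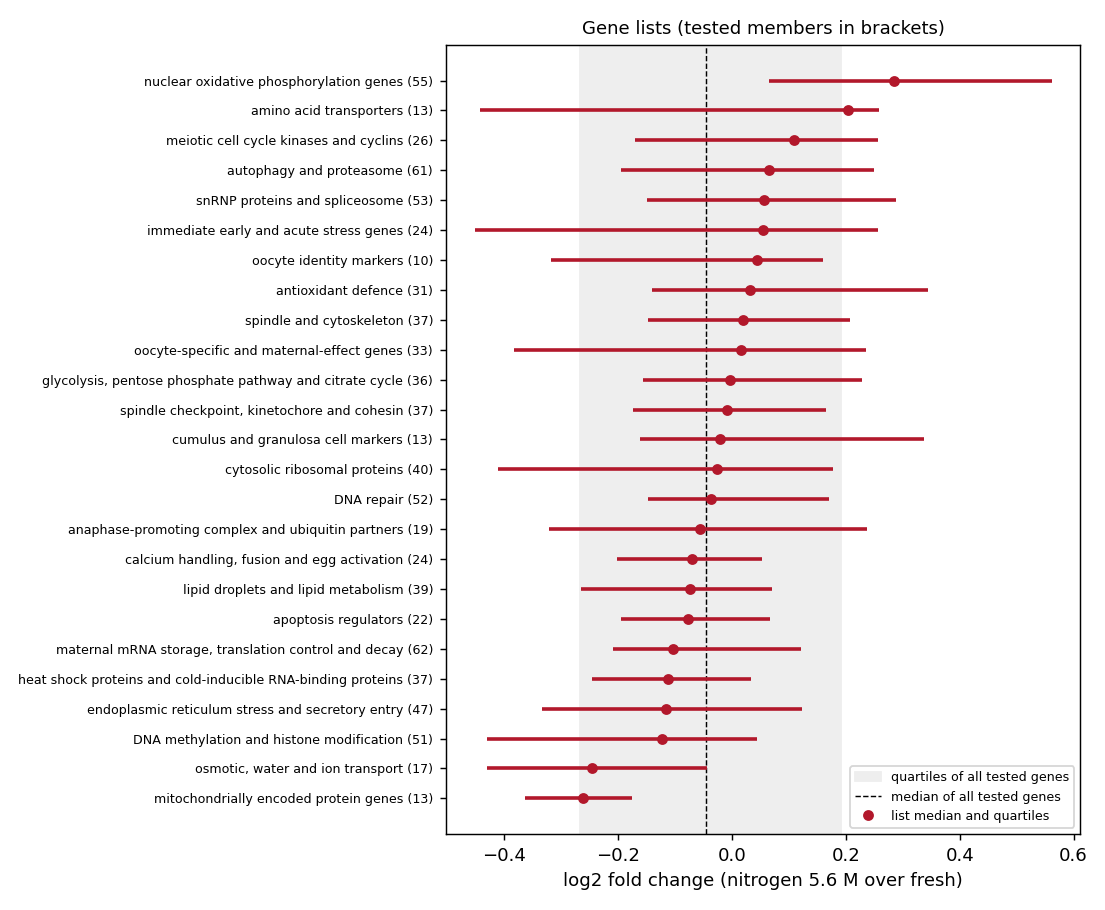
Median log2 fold change (nitrogen 5.6 M over fresh) of the tested members of each gene list with at least 5, with bars over the quartiles of the members. The dashed line is the median of all tested genes at -0.05 and the grey band their quartiles, -0.27 to 0.19; the nuclear oxidative phosphorylation list is highest at 0.29 and the mitochondrially encoded one lowest at -0.26.

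The respiratory chain is built from subunits of the nuclear and the mitochondrial genome. Of 55 tested nuclear subunits and assembly partners, 42 lay above 0 and 13 below, with a median log2 fold change of 0.29. None was called by edgeR, 1 by DESeq2 (NDUFC1) and 2 by limma (NDUFC1 and NDUFA10). Above every fresh library were 14 of the 55 (5.24% over all genes), and below every fresh library were 0 (4.03% over all genes). Complex I, which takes electrons from NADH, held 11 of those 14: 24 of its 28 tested genes lay above 0, with a median of 0.49. Its members without overlap included NDUFA1, at 62.7, 82.7 and 111 CPM in nitrogen 5.6 M against 61.4, 32.2 and 55.6 CPM in fresh oocytes, and NDUFB9, at 26.3, 31.7 and 31.3 CPM in nitrogen 5.6 M against 16.0, 21.1 and 19.8 CPM in fresh oocytes. NDUFA6 was at 317, 371 and 347 CPM in nitrogen 5.6 M against 252, 132 and 309 CPM in fresh oocytes. Complex III had a median of 0.16 over 6 genes, ATP synthase 0.10 over 10, complex II 0.08 over 3 and complex IV 0.13 over 8, NDUFA4 included. ATP5J and COX7A2L, the most abundant members, had log2 fold changes of 0.24 (SE 0.24) and -0.17 (SE 0.20). The list's median was 0.24 to 0.38 under every alternative run. Its members are short, with a median length of 725 bases. Among the 1689 shortest tested genes, up to 1143 bases, 61.0% lay above 0 and 11.9% lay above every fresh library, against 76.4% and 14 of 55 in the list. How far length accounts for the list's values was not tested.

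All 13 protein-coding genes of the mitochondrial genome lay below 0 and none was called by edgeR, DESeq2 or limma. The range was -0.56 for ND6 to -0.0013 for COX1, with a median of -0.26. The groups overlapped for each of the 13. COX3 was at 5768, 9834 and 4213 CPM in nitrogen 5.6 M against 12817, 4411 and 8273 CPM in fresh oocytes, and ND3 at 213, 260 and 239 CPM in nitrogen 5.6 M against 603, 196 and 223 CPM in fresh oocytes. Fresh library 1 was the highest of the 6 for COX3 and ND3. These genes lie on 1 small molecule and most of them are transcribed together, so they are not 13 separate observations. Without fresh library 1 the median turned to 0.25, and without fresh library 2 it was -0.64. All 37 mitochondrial genes together took 5.17%, 6.29% and 4.06% of counts in nitrogen 5.6 M and 8.66%, 4.14% and 5.12% in fresh libraries. The means were 5.17% ± 1.11 in nitrogen 5.6 M and 5.97% ± 2.38 in fresh oocytes (SD, n = 3 each), a difference of -0.803 percentage points that did not pass (exact permutation test, two-sided, p = 0.7, where 0.1 is the smallest that 20 splits allow). It turned to 0.540 without fresh library 1.

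None of the 10 most abundant nuclear transcripts per length, among genes with a symbol, passed the test. BTG4, which brings the deadenylase to maternal messages at the end of meiosis, was highest, at 33047, 40343 and 34828 FPKM in nitrogen 5.6 M and 27169, 17469 and 35623 FPKM in fresh oocytes. CKS1B and CKS2, small partners of cyclin-dependent kinases, averaged 20802 ± 2279 and 8050 ± 1527 FPKM in nitrogen 5.6 M and 15687 ± 5314 and 6610 ± 1496 FPKM in fresh oocytes (SD, n = 3 each). CETN3, a centrin, came between them with 9191 ± 305 FPKM in nitrogen 5.6 M and 8275 ± 3719 FPKM in fresh oocytes. The others were CALM2 at both of its loci, SUMO2, ENY2, YPEL5 and TMSB4X. The CALM2 loci carry the same symbol in the table, and the split of reads between them is uncertain. Log2 fold changes over the 10 ran over -0.05 to 0.56, with no gene free of overlap. Fresh library 2 was the lowest of the 6 for BTG4, CKS1B, CKS2 and CETN3. At 1 FPKM or more, 8899, 8719 and 8871 genes were detected in nitrogen 5.6 M and 8554, 9743 and 8422 in fresh libraries. The difference of means was -76.7 genes (exact permutation test, two-sided, p = 1), and it turned to 342 without fresh library 2, the library with the most genes.

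Fold changes followed gene length across the table. Over 5 length classes of equal size, shortest to longest, the median log2 fold change was 0.10, 0.00, -0.06, -0.09 and -0.14, and the share of genes above 0 was 61.0%, 50.1%, 42.2%, 38.7% and 30.9%. In the shortest class 157 genes had an unadjusted p under 0.05 with a higher level in nitrogen 5.6 M and 29 with a lower one, whereas in the longest class it was 20 and 65. Across the 8441 genes, which are not independent replicates, Spearman's rho between length and log2 fold change was -0.21. The libraries did not carry this alike. Relative to the mean of the 6, the median level of the shortest class was 0.02, 0.16 and 0.10 on the log2 scale in nitrogen 5.6 M libraries 1, 2 and 3, and -0.17, -0.10 and 0.08 in fresh libraries 1, 2 and 3. Nitrogen 5.6 M library 1 was nearly flat over the classes, and fresh library 3 lay with the vitrified libraries for short genes.

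**Figure D5:**
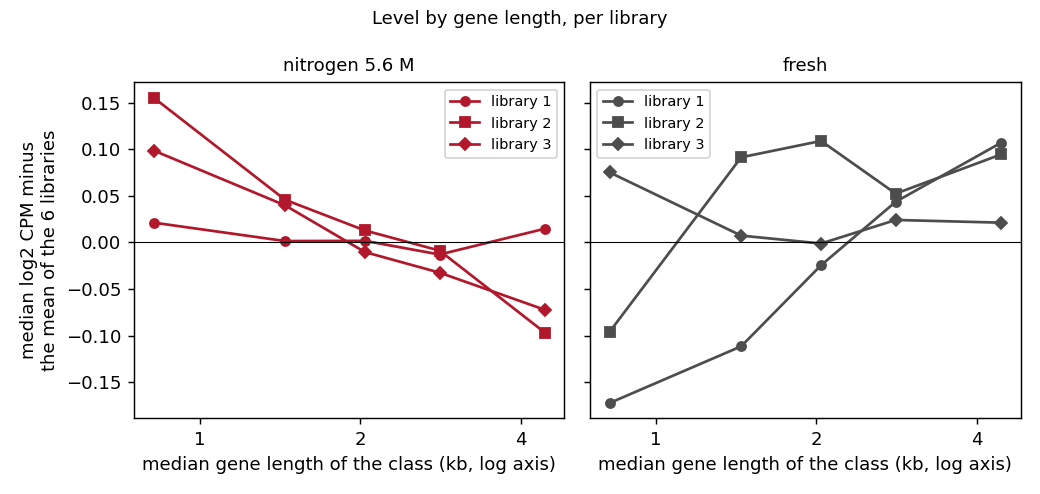
Median log2 CPM minus the mean of the 6 libraries (vertical axis) in the 5 classes of genes by length (horizontal axis, median length of each class in kilobases on a log scale), 1 line per library, nitrogen 5.6 M at the left and fresh at the right. Nitrogen 5.6 M libraries 2 and 3 fall from 0.16 and 0.10 in the shortest class to -0.10 and -0.07 in the longest, while fresh library 1 runs the other way, -0.17 to 0.11.

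The nitrogen 5.6 M oocytes were also set against the vitrified groups whose labels differ from theirs in a single factor. Depth differed too. Nitrogen 6.6 M library 3 held 7392972 counts, and libraries 1 and 2 of that group held 1987931 and 2613014. The part of depth in the comparison with nitrogen 6.6 M was not tested. Against nitrogen 6.6 M, which has the same coolant and more cryoprotectant, no gene of 8441 was called (0%), and 166 had an unadjusted p under 0.05 (1.97%). The smallest adjusted p by edgeR was 0.901, and DESeq2 called 0 genes too. SNRPC differed by -0.04 on the log2 scale (95% interval -0.45 to 0.38), and the fit does not tell apart the values within that interval. SNRPC and the 23 genes ran over -0.21 for CLK1 to 0.67 for CBR3, with a median of -0.06.

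Against helium 5.6 M, which has the same concentration and a colder coolant, edgeR called no gene either (0%), with 803 at an unadjusted p under 0.05 (9.51%) and a smallest adjusted p of 0.0575. DESeq2 called 48 of 8395 genes (0.572%). SNRPC differed by 0.06 (95% interval -0.36 to 0.47). LYRM7 had the largest value of the 24 at 1.12, followed by NDUFC1 at 0.74 and SEC61G at 0.71, all higher in nitrogen 5.6 M and none past the threshold (smallest edgeR adjusted p over the 24, 0.166). SEC61G averaged 489 ± 85.2 CPM in nitrogen 5.6 M, against 299 CPM in helium 5.6 M. Helium 5.6 M libraries held 6346848 to 8569618 counts, above each nitrogen 5.6 M library, so coolant and depth cannot be told apart in this comparison.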

How the data were processed

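The deposited table gives raw whole-number counts for each gene and library, per the file headers, and FPKM values deposited beside them. In all 180473 values above 0, the ratio of count over library total to FPKM equalled its gene's median within 0.1 percent. Gene lengths were inferred from that median, so the match does not test them. A gene with a count in a single library matches by construction. HISAT2 2.0.4, StringTie 1.3.0 and the build UMD3.1 are named in the submitters' processing notes. Read filters, strand and the handling of reads with several matches were not given in those sources. No genome or sequence was used.

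Genes passing filterByExpr for 5 groups entered 1 robust edgeR 4.0.16 quasi-likelihood fit of all 15 libraries (R 4.3.3, TMM scaling, meaning trimmed mean of M-values, no replicate block). Contrasts were adjusted by Benjamini-Hochberg over 8441 genes, threshold 0.05. DESeq2 1.42.0 and limma 3.58.1 were alternatives. Scripts were tested on simulated data. Level CPM is TMM-scaled except for marker sums. Lists are described by counts and medians, without a test. Of the list entries, 1110 matched by symbol, 12 by a RefSeq synonym, 1 by another name of the same mitochondrial gene, and 184 by none. Named genes were all those past the threshold, then those of smallest p with at least 5 FPKM in the higher group up to 24, 2 of smallest p and 2 of highest level per list, 20 genes known from an earlier comparison, and the 10 most abundant. Not every gene meeting the rule is described. Members, lists and tests were chosen with earlier results of these data known. Chi-square per degree of freedom between replicates was 5.52 to 30.0, far above sampling noise. Floors (3 counts) cover counting error only. The intervals of log2 fold changes come from the edgeR fit and include the spread between libraries.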

Additional observations from a re-analysis of the deposited data

How the results depend on the processing

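Against fresh oocytes, edgeR's call of 1 gene became 4 with upper quartile scaling (adding BTF3L4, CWC15 and SEC61G) and 26 with no filter on low counts. DESeq2 gave 36, and limma 19 and 12 with pseudocounts of 1 and 0.1; 7 of the 19 averaged under 3 counts in both groups. Leaving out each library gave 1 to 3 calls, with BTF3L4 and SF3B6 added without fresh library 3. Against nitrogen 6.6 M, 0 calls became 2 with limma at either pseudocount and 3 with no filter, and stayed 0 (0 to 0) with a library left out. Against helium 5.6 M, 0 calls became 5 with at least 10 counts in every library of a group, 31 in a fit of the 2 groups, 48 with DESeq2, 4 and 5 with limma at 1 and 0.1, 61 with no filter and 1 with upper quartile scaling, and stayed 0 (0 to 0) with a library left out. Called members of the lists numbered 1, and 3 with upper quartile scaling, with 1 to 2 over left-out libraries; in settings added after seeing the data they numbered 16 with DESeq2, 9 and 5 with limma at 1 and 0.1, and 10 with no filter. The cause of these moves was not tested. The mitochondrial difference ran over -1.72 to 0.540 points with 1 library left out, reversed without fresh library 1. The difference in detected genes ran over -319 to 342, reversed without fresh library 2, and was 57.3 at 0.1 FPKM. Same-numbered nitrogen 5.6 M and fresh libraries deviated together by r = 0.104, -0.320 and -0.158, and differently numbered ones by -0.196 to 0.302. Equal numbers thus did not go with a higher r. Whether same-numbered libraries shared a batch cannot be told from these values. With the replicate block SNRPC was again the 1 call (edgeR adjusted p = 0.0440), and 0 genes were called against nitrogen 6.6 M. Only number 3 is shared with helium 5.6 M, so no block was run there. The settings not named here (the RLE size factors and mitochondrial genes left out in each comparison) kept each count within 1.5 times.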

Other observations

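Genes that DESeq2 called and edgeR did not, and that are not described above, were chosen for mention after their values were seen. VRK1, a kinase of chromatin, had a DESeq2 log2 fold change of 0.79 (adjusted p = 0.0315). FRG1, a protein found with spliceosomes, was at 0.65 (0.0131), ERH, a small conserved nuclear protein, at 0.67 (0.0180), and CFAP20 and DRC7, proteins of cilia and flagella, at 0.62 (0.00271) and 0.59 (0.0315). All 5 were higher in nitrogen 5.6 M, and their edgeR adjusted p-values were 0.403 or above. Of the 36 DESeq2 calls, 7 had no gene symbol. Without a filter on low counts, edgeR also called the unnamed gene ENSBTAG00000023659, which had 122 counts in nitrogen 5.6 M library 1 and 5 in each of the other 2.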
